A study of Mus musculus with 24 samples.

Results

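Whole ovaries of mice aged 12 months were compared with whole ovaries of mice aged 9 months, across all genes. The 6 libraries of this step were chosen by their sample labels alone, 3 of 12 months and 3 of 9 months, out of 24 libraries in the series, and no measured value entered the choice. Both groups carry the natural aging label, and the study used female C57BL/6J mice, with RNA taken from single homogenized ovaries. The study states that 3 mice of each age gave RNA for sequencing, so a library stands for a mouse. The labels name no treatment, transgene or stage of the oestrous cycle for them. The study also sequenced ovaries of mice given ABT263, which blocks anti-apoptotic proteins of the BCL-2 family, and its text speaks of vehicle-treated controls that at 9 months had been housed with males before collection. Whether the 9-month mice compared here were those controls was not settled, and if so vehicle, mating and age cannot be told apart in this comparison. Total counts were 18377716, 19829519 and 21049389 in replicates 1, 2 and 3 at 9 months, and 19440056, 19848780 and 19555640 at 12 months. The comparison asks which genes differ between these ages, near the end of the reproductive life of laboratory mice. Levels are given as CPM, reads of a gene scaled to a common library total and corrected for library composition, and in each list of values the 3 mice stand in the order of their replicate numbers.

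An ovary holds follicles, in which an oocyte is surrounded by granulosa cells and, in larger follicles, by theca cells that make androgens. After ovulation the follicle becomes a corpus luteum, which makes progesterone from cholesterol. Between them lie stroma, vessels and macrophages, which clear dying follicles and regressing corpora lutea, and in old mouse ovaries macrophages are known to fuse into multinucleated giant cells. A whole-ovary library mixes all of these cells, and fewer cells of a type and less RNA per cell cannot be told apart.

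The markers of the labelled tissue were present in all 6 libraries. Zp3, a coat protein of the egg, had 23.2, 11.4 and 29.9 CPM at 9 months and 18.2, 2.66 and 14.7 CPM at 12 months. Inha, the inhibin subunit made by granulosa cells, had 1223, 2661 and 2488 CPM at 9 months and 1867, 556 and 2740 CPM at 12 months. Markers of neighbouring tissues were present in part. Of the 10 genes listed for each, 3 passed the filter on low counts for oviduct epithelium and 3 for adipocytes, and 3 of 8 did for skeletal muscle. The oviduct list summed to 27.5 to 71.7 CPM over the 6 mice, mostly through Epcam, an adhesion protein of many epithelia. The adipocyte list summed to 360, 195 and 188 CPM at 9 months and 450, 505 and 245 CPM at 12 months, mostly through Plin4, a protein of lipid droplets, while Lep and Ucp1 had at most 3 counts in every library. The skeletal muscle list summed to 4.42 to 10.9 CPM, and the part of these tissues in the values below was not tested.

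The libraries did not sort by age. The first principal component of 14063 genes held 51.06% of the variance, with scores of 24, -30.6 and -30.6 at 9 months and -33.2, 57.2 and 13.3 at 12 months. Replicate 1 of 12 months lay closest to replicates 3 and 2 of 9 months, at a root mean square distance of 0.380 and 0.393 on the log2 scale, and 0.811 from replicate 2 of its own age. Replicate 2 of 12 months lay farthest from the others. The genes at the low end of this component included Bpifb6, Cited1, Hsd17b7 and Rln1, and those at its high end included Akr1c18, which breaks down progesterone, and Cyp11b1, an enzyme of corticosteroid synthesis. Cited1, a regulator of transcription, shows the pattern, with 5.30, 224 and 163 CPM at 9 months and 275, 1.82 and 8.37 CPM at 12 months. The spread between mice of an age, as the median standard deviation of log2 CPM over genes, was 0.205 at 9 months and 0.225 at 12 months, the largest of the 6 ages, against 0.151 at 6 months.

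No gene passed the adjusted threshold in the main test. Of 17309 genes tested with edgeR's quasi-likelihood test, 0 were higher and 0 were lower at 12 months at a Benjamini-Hochberg adjusted p under 0.05, and the smallest adjusted p was 0.999. At an unadjusted p under 0.05, 454 genes (2.62%) were higher at 12 months and 95 (0.549%) lower, together 549 genes (3.17%). The 3 mice of 12 months lay above all 3 of 9 months in 697 genes (4.03%) and below them in 555 (3.21%). The median log2 fold change over all genes was -0.0033, 49.4% of genes were above 0, and the median standard error of a gene's log2 fold change was 0.237. DESeq2 called 5 of 19464 genes (0.0257%), all higher at 12 months, namely Ighm, Igkv3-2, Rps29, Ctss and Gm19410. Accordingly the values below describe these 6 mice, and fold changes of named genes carry their standard error and unadjusted p.

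The macrophage and giant macrophage lists had the highest medians among the marker lists with more than 3 tested genes. All 10 markers of macrophages were above 0, with a median log2 fold change of 1.06, and for 8 the unadjusted p was under 0.05 in that direction, against 2.62% of all genes. Their summed level was 616, 637 and 541 CPM at 9 months and 713, 1976 and 1295 CPM at 12 months, so that the groups did not overlap, but replicate 1 of 12 months lay close above the 9-month mice. Lyz2, the lysozyme of macrophages and the most abundant marker of the list per length, had 271, 266 and 238 CPM at 9 months and 342, 1045 and 581 CPM at 12 months (log2 fold change 1.36 ± 0.38 SE, unadjusted p = 0.00898). Its near-identical neighbour Lyz1 may share reads with it. Cd68, a glycoprotein of phagocyte lysosomes, had 36.5, 35.3 and 35.1 CPM against 43.2, 137 and 75.5 CPM (1.28 ± 0.39). The receptors Csf1r and Adgre1 overlapped between the ages, with log2 fold changes of 0.72 and 0.76, and the scavenger receptors Cd163 and Mrc1 were nearest to 0, with 0.52 and 0.23. Of the 10 markers, 3 lay above every 9-month mouse in replicate 1, 9 in replicate 2 and 9 in replicate 3, while the shares over all genes were 20.2%, 28.3% and 23.9%. Without replicate 2 the median was 0.70, still with all 10 above 0.

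**Figure D1:**
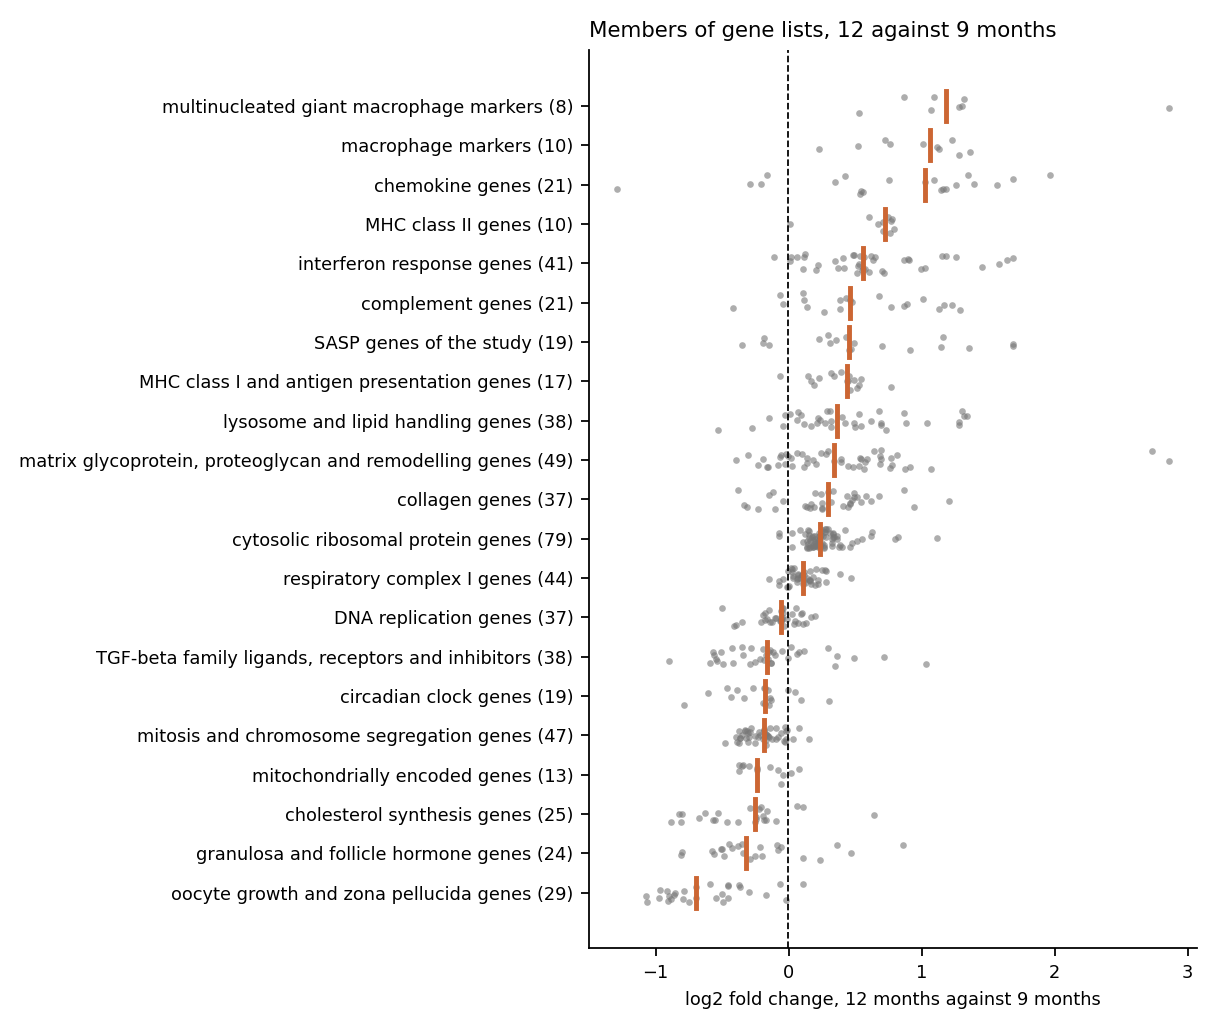
Log2 fold changes of the tested members of 21 gene lists, 12 months against 9 months. Each point is a gene, the orange bar is the list's median, the dashed line is the median over all 17309 genes tested and the number of tested members stands after each name; the medians run from 1.19 for the giant macrophage markers to -0.69 for the oocyte list.

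Several of the named genes that were higher at 12 months are known from myeloid cells. Ctss, cathepsin S, a protease that trims antigens in lysosomes (ENSMUSG00000038642, GRCm38 chromosome 3, 95526786 to 95556403), had 101, 117 and 102 CPM at 9 months and 168, 372 and 259 CPM at 12 months. The log2 fold change was 1.34 ± 0.28 with an unadjusted p of 0.00206, and DESeq2 gave it an adjusted p of 0.0299. Tyrobp, the adaptor of myeloid receptors on chromosome 7 (30413760 to 30417585), had 19.4, 21.1 and 21.3 CPM against 32.1, 70.6 and 44.6 CPM, with 1.27 ± 0.28 and unadjusted p = 0.00278. Fcer1g, the common chain of Fc receptors on chromosome 1 (171229572 to 171234365), had 17.4, 17.7 and 18.2 CPM against 24.8, 59.1 and 48.0 CPM, with 1.33 ± 0.31 and unadjusted p = 0.00331. In all 3 genes replicate 1 was the lowest and replicate 2 the highest of the 12-month mice, and none overlapped the 9-month mice. Gngt2, a G protein gamma subunit on chromosome 11 (95837216 to 95845734), had 7.46, 10.1 and 8.98 CPM against 15.8, 19.8 and 16.2 CPM, with 0.98 ± 0.20 and unadjusted p = 0.00153.

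Genes that mark multinucleated giant macrophages showed a similar order of mice. Of 10 listed, 8 were tested and all 8 were above 0, with a median of 1.19. Their summed level was 272, 327 and 312 CPM at 9 months and 414, 1378 and 545 CPM at 12 months, with no overlap. Gpnmb, a membrane glycoprotein of lipid-laden macrophages, had 78.9, 122 and 133 CPM against 164, 427 and 217 CPM (1.30 ± 0.39, unadjusted p = 0.0117). Trem2, a lipid receptor of phagocytes, had 17.5, 20.2 and 21.4 CPM against 22.6, 75.8 and 43.0 CPM. Mmp12, the macrophage elastase, had 18.9, 36.0 and 29.5 CPM against 47.5, 78.4 and 48.8 CPM, and Acp5 and Lgals3, the most abundant of the list per length, were also without overlap, at log2 fold changes of 1.09 and 1.32. Spp1, osteopontin, stood apart, with 371 CPM in replicate 2 of 12 months and 10.2 to 33.7 CPM in the other 5 mice. Dcstamp and Ocstamp, which drive cell fusion, did not pass the filter on low counts. Without replicate 2 of 12 months the median of the list was 0.74 and 7 of 8 were above 0.

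Lysosome and lipid handling genes were higher as a list, 33 of 38 above 0 with a median of 0.36, 7 at an unadjusted p under 0.05 (2.62% of all genes) and 8 without overlap (4.03% of all genes). This list shares Ctss, Gpnmb, Cd68, Trem2, Lgals3, Ctsk and Atp6v0d2 with the macrophage descriptions and marker lists. Abcg1, a cholesterol exporter, had 14.6, 27.1 and 17.1 CPM at 9 months and 27.9, 51.6 and 39.4 CPM at 12 months (1.04 ± 0.30, unadjusted p = 0.011). Psap, the precursor of the saposins and the most abundant member per length, had 2592, 2672 and 1986 CPM against 2260, 5133 and 3032 CPM, and the ages overlapped. Replicate 2 of 12 months lay above every 9-month mouse in 30 of the 38 genes, replicate 3 in 20 and replicate 1 in 12. In the same order the shares over all genes were 28.3%, 23.9% and 20.2%. Without replicate 2 the median of the list was 0.13, with 30 of 38 above 0. Apoc1, an apolipoprotein on chromosome 7 (19689481 to 19692660), was even among the 12-month mice, at 6.89, 6.98 and 7.98 CPM, against 2.81, 3.48 and 3.65 CPM at 9 months (1.15 ± 0.24, unadjusted p = 0.0018).

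Of the iron and heme genes 12 of 15 were above 0, with a median of 0.22, and 3 had an unadjusted p under 0.05 in that direction, against 2.62% of all genes. Hmox1, heme oxygenase, which opens the heme ring (ENSMUSG00000005413, chromosome 8, 75093621 to 75100589), had 93.0, 95.5 and 74.1 CPM at 9 months and 142, 137 and 122 CPM at 12 months (0.63 ± 0.14, unadjusted p = 0.00255). Unlike the macrophage markers, it was highest in replicate 1. Trf, transferrin, had 3.95, 4.75 and 4.56 CPM against 6.29, 22.4 and 9.57 CPM (1.55 ± 0.47), and Slc11a1, a metal transporter of phagosomes, had 24.4, 23.8 and 24.3 CPM against 24.5, 77.0 and 43.3 CPM (1.02 ± 0.38). Slc40a1, the iron exporter ferroportin, and Ftl1, ferritin light chain, overlapped between the ages, at 0.49 and 0.22.

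Complement genes, whose products tag debris and microbes, were above 0 in 18 of 21, with a median of 0.46 and 5 at an unadjusted p under 0.05, against 2.62% of all genes. C1qc, a chain of the recognition molecule C1q and a macrophage marker of these lists, had 56.4, 67.0 and 55.0 CPM at 9 months and 73.1, 192 and 146 CPM at 12 months (1.23 ± 0.33, unadjusted p = 0.00768). C1qb followed it, with 67.9, 89.0 and 68.4 CPM against 83.9, 231 and 171 CPM. C1qa and C1qb are on the macrophage list too. C4b had 40.1, 49.8 and 36.7 CPM against 50.4, 150 and 79.4 CPM (1.17 ± 0.38), and reads could be split with its copy C4a. Cfp, properdin, gave 0.68 ± 0.22. Clu, the most abundant gene of the list per length, had 4114 CPM in replicate 2 and 1528 and 1339 CPM in replicates 1 and 3, within or near the 1197 to 1612 CPM at 9 months. Without replicate 2 the median was 0.24.

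Chemokine genes, which call leukocytes into tissue, were above 0 in 17 of 21 tested, with a median of 1.03, 6 at an unadjusted p under 0.05 (2.62% of all genes) and 4 without overlap (4.03%). Ccl5, which attracts T cells and monocytes, had 1.51, 1.55 and 1.2 CPM at 9 months and 3.42, 2.76 and 3.39 CPM at 12 months (1.18 ± 0.29, unadjusted p = 0.00443). Xcl1 had 0.378, 0.110 and 0.240 CPM against 0.597, 0.833 and 0.748 CPM. Ccl8 was high in replicates 2 and 3, at 5.15 and 2.44 CPM, while replicate 1, at 0.488 CPM, lay under the 0.576 to 0.865 CPM of 9 months. Cxcl14, the most abundant of the list per length, overlapped (0.42 ± 0.25). These are low levels, since 3 counts correspond to 0.143 to 0.163 CPM in these libraries. With at least 10 counts in every library the median of the list was 0.55, and without replicate 2 of 12 months it was 0.45.

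Interferon response genes, which cells turn on after interferon binds its receptor, were above 0 in 40 of 41, with a median of 0.56. At an unadjusted p under 0.05, 6 were higher (2.62% of all genes), and 6 did not overlap (4.03%). Their pattern over mice differed from that of the macrophage markers. Replicate 3 of 12 months lay above every 9-month mouse in 37 of the 41 genes (90.2%), against 23.9% of all genes. Replicates 1 and 2 did so in 15 each (36.6%), against 20.2% and 28.3% of all genes. Isg15, a ubiquitin-like modifier, shows this, with 6.11, 6.19 and 6.24 CPM at 9 months and 5.80, 9.06 and 29.1 CPM at 12 months (1.26 ± 0.57, unadjusted p = 0.0618). Without replicate 3 the median of the list was 0.10, and without replicate 2 it was 0.69.

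Among the members with the smallest p, Cxcl10, a chemokine for T cells, had 3.57, 1.33 and 0.864 CPM at 9 months and 8.95, 3.90 and 5.58 CPM at 12 months (1.69 ± 0.58, unadjusted p = 0.0222). Tgtp2, an interferon-induced GTPase whose copy Tgtp1 may share its reads, had 8.70, 10.1 and 11.7 CPM against 16.7, 12.2 and 26.4 CPM (0.87 ± 0.30). Irf1, a transcription factor of the pathway, had 54.7, 60.5 and 57.2 CPM against 68.4, 66.3 and 82.7 CPM (0.35 ± 0.13). Zbp1, a sensor of nucleic acids, had 4.97, 3.87 and 3.17 CPM against 3.69, 9.58 and 19.2 CPM, and overlapped. Bst2, tetherin, the most abundant member per length, was the only member below 0, at -0.11 ± 0.21.

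The promoters of this list are shown because its members are grouped by a shared response. Interferon-induced genes are known to carry a sequence element bound by STAT and IRF factors, and the letters GAAA followed after any 2 bases by GAAA were searched, on both strands (TTTC, any 2 bases, TTTC on the other), in the 250 bases before each RefSeq start. No other motif was searched. Of the 41 genes tested 30 had an entry in the RefSeq table (GRCm38.p6), and 20 of these (66.7%) held the letters, against 978 of 32851 promoters (2.98%). The list was written from general knowledge of interferon-induced genes, so this share describes the list and not the step. The 3 members with the smallest p among those with a match follow, 5′ to 3′ on the gene's strand and ending at the base before the start, with the match in capitals.
Cxcl10, chr5:92348890-92349139, minus strand: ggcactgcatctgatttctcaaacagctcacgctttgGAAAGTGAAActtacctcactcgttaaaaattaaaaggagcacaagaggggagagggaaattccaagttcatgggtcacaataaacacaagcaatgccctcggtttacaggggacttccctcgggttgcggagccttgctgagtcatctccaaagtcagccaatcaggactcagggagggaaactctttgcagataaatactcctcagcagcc
Tgtp2, chr11:49064213-49064462, minus strand: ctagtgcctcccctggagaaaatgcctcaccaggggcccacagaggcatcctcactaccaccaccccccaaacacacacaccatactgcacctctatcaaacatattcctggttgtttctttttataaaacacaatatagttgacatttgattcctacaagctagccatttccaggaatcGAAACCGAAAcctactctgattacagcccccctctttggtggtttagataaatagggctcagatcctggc
Irgm1, chr11:48871421-48871670, minus strand: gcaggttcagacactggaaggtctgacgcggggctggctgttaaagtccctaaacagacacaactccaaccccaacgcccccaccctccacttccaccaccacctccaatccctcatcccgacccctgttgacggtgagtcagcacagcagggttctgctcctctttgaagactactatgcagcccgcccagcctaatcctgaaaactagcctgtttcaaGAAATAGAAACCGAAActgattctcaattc
The match begins 213 bases before the start in Cxcl10 and 70 in Tgtp2, and Irgm1 holds overlapping matches that begin 30 and 24 bases before it. Irgm1, a GTPase that acts on vacuoles holding microbes, had 35.9, 38.9 and 37.0 CPM at 9 months and 44.6, 42.2 and 67.8 CPM at 12 months (0.48 ± 0.19). Irf1 has an entry without these letters in its window.

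Genes of antigen presentation stood above 0 almost throughout. For MHC class I and its peptide supply this was 16 of 17 genes, with a median of 0.44 and 5 at an unadjusted p under 0.05, against 2.62% of all genes. The subunits of the immunoproteasome, which cuts peptides for class I, did not overlap: Psmb8 had 18.1, 18.6 and 18.7 CPM at 9 months and 21.7, 32.9 and 38.9 CPM at 12 months (0.77 ± 0.22, unadjusted p = 0.0106). Psmb10 had 36.5, 39.7 and 38.1 CPM against 43.8, 53.0 and 56.7 CPM (0.44 ± 0.13), and Psmb9 gave 0.51 ± 0.18. Tap1, which carries the peptides, gave 0.45 ± 0.18 with overlap, and B2m, the light chain and the most abundant member per length, overlapped at 0.22. For MHC class II all 10 tested genes were above 0, with a median of 0.73. Ciita, the master regulator of class II genes, had 7.03, 10.4 and 9.79 CPM against 13.3, 13.2 and 17.5 CPM (0.71 ± 0.23, unadjusted p = 0.017), and Cd74, the invariant chain, had 162, 410 and 283 CPM against 306, 495 and 645 CPM (0.78 ± 0.39). H2-DMb1, H2-DMa and H2-Aa were between 0.71 and 0.79, each with overlap.

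Markers of the other immune cells were at low levels. Dendritic cell markers were all above 0, 8 of 8 with a median of 0.69 and summed levels without overlap, 63.6, 67.6 and 60.8 CPM against 72.5, 82.8 and 86.7 CPM. Among them Zbtb46 gave 0.33 ± 0.11 and Flt3 1.18 ± 0.46. T cell markers were above 0 in 8 of 9, with a median of 0.32, and Cd4, also present on some macrophages, had 1.89, 4.69 and 4.08 CPM against 5.31, 9.47 and 8.72 CPM (1.16 ± 0.41). B cell markers were above 0 in 6 of 7, with a median of 0.67 and sums of 4.92, 8.06 and 8.69 CPM against 14.3, 10.1 and 11.4 CPM. The natural killer and innate lymphoid list had 5 of 7 above 0 and a median of 0.02, mast cell markers 6 of 7 and 0.71, and neutrophil markers 3 of 3 and 1.22, with Ltf at 17.5 CPM in replicate 3 of 12 months and at most 5.21 CPM in the other 5 mice. Ly6g, Mpo and Elane, also on the neutrophil list, had at most 3 counts in every library.

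Ighm, the constant region of the IgM heavy chain (ENSMUSG00000076617, chromosome 12, 113418558 to 113422730), had the smallest p of all genes tested, 0.000253. Its level was 14, 10.9 and 9.74 CPM at 9 months and 89.0, 56.3 and 33.6 CPM at 12 months, a log2 fold change of 2.38 ± 0.35, with an adjusted p of 2.59e-07 in DESeq2 and 0.0366 in edgeR without a filter on low counts. Of 70 immunoglobulin genes tested 5, Ighm among them, were higher without overlap, against 4.03% of all genes, and Igha and Igkc overlapped. Igha, the IgA constant region, had 17.5, 262 and 191 CPM against 8.35, 16.7 and 363 CPM, and Igkc, the kappa light chain, 25.8, 151 and 123 CPM against 69.5, 101 and 293 CPM. The variable segment Igkv3-2, which may share reads with its relatives, had 0.162, 1.93 and 0.768 CPM against 9.82, 9.32 and 10.8 CPM, without overlap. Of the 70 genes 45 were above 0, with a median of 0.17, and their sums overlapped, 118, 591 and 444 CPM against 230, 336 and 1040 CPM. Plasma cell markers were above 0 in 5 of 9, with a median of 0.23 that turned sign under an alternative fit. Jchain, which joins IgM and IgA units, was 7.30, 53.5 and 39.6 CPM against 11.8, 14.1 and 97.3 CPM.

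**Figure D2:**
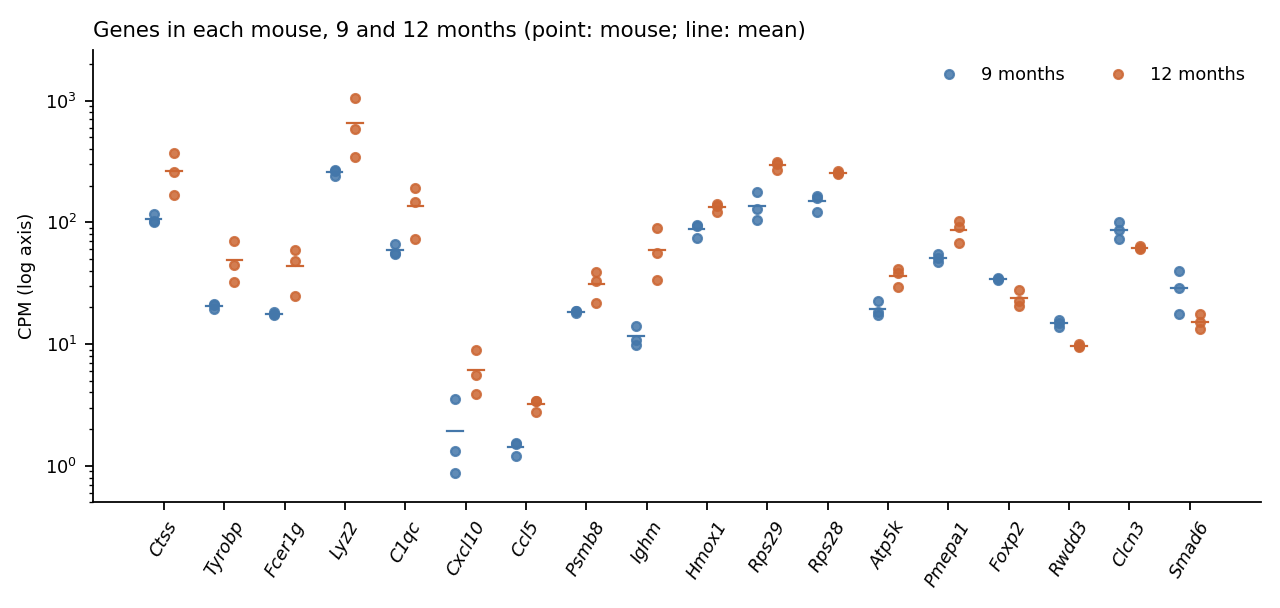
CPM, on a log axis, of 18 genes in each mouse at 9 months (blue) and 12 months (orange), with the mean as a line. In each of these genes the points of the ages do not overlap; Ighm lies at 9.74 to 14 CPM at 9 months and 33.6 to 89.0 CPM at 12 months, and Foxp2, Rwdd3, Clcn3 and Smad6 are lower at 12 months.

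Among the lists described here, the ribosomal protein genes had the largest number of members without overlap, though not the largest share. Of 79 cytosolic ribosomal protein genes 77 were above 0, with a median of 0.23, and 26 did not overlap, against 4.03% of all genes. At an unadjusted p under 0.05, 12 were higher, against 2.62% of all genes. Rps29 (ENSMUSG00000034892, chromosome 12, 69157722 to 69159186) had 130, 105 and 176 CPM at 9 months and 299, 315 and 267 CPM at 12 months (1.11 ± 0.21, unadjusted p = 0.00111). Rps28, on chromosome 17 (33819027 to 33824562), had 157, 122 and 166 CPM against 265, 256 and 248 CPM (0.80 ± 0.15, unadjusted p = 0.00117). Rpl38 and Rpl39 gave 0.82 ± 0.19 and 0.62 ± 0.19, also without overlap. Rplp1, the most abundant per length, overlapped, at 0.43 ± 0.20. The summed level was 36551, 34511 and 40638 CPM at 9 months and 40008, 46030 and 45537 CPM at 12 months, so the sums overlapped. Of the 79 genes, 26 in replicate 1, 64 in replicate 2 and 72 in replicate 3 lay above all 9-month mice. Over all genes the shares were 20.2%, 28.3% and 23.9%. Processed pseudogenes resemble these genes closely, and how reads shared with them were counted is not given in the sources used here.

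The leading genes of this kind have short transcripts. The median transcript length is 390 bases for Rps29, 387 for Rps28 and 321.5 for Atp5k, the e subunit of ATP synthase on chromosome 5 (108433244 to 108434448), which had 17.2, 18.2 and 22.5 CPM at 9 months and 41.7, 38.4 and 29.2 CPM at 12 months (0.93 ± 0.19, unadjusted p = 0.00151). Over protein-coding genes the median log2 fold change decreased from 0.22 for 98 genes of up to 500 bases to 0.0052 for 3653 genes of 2000 to 3000 bases and -0.07 for 2046 genes above 5000 bases. The share of genes higher without overlap decreased from 18.4% to 2.05%. Without the ribosomal protein genes the shortest class, 85 genes, had a median of 0.17 and a share of 9.41%. The part of transcript length in the ribosomal protein values was not tested. Gngt2, Tyrobp and Apoc1, with 573, 564 and 432 bases, are also short. Ctss, Lyz2 and Hmox1, with 1355, 1316 and 1569 bases, belong to length classes with medians under 0.05. The part of length in the values of these genes was not tested either.

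**Figure D3:**
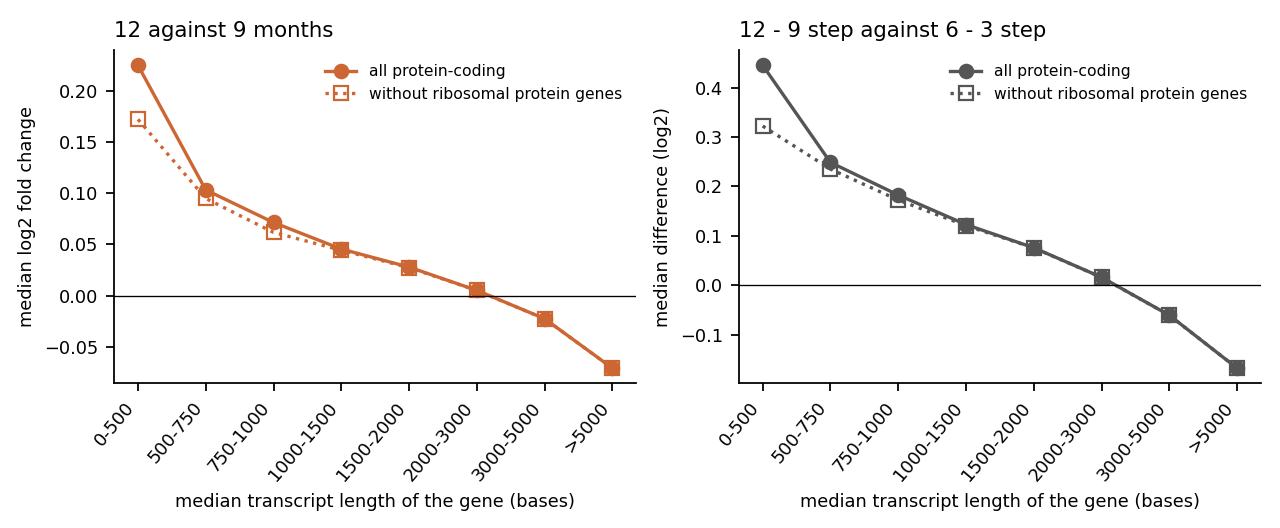
Median log2 fold change of protein-coding genes in 8 classes of transcript length, for 12 against 9 months (left) and for the difference between this step and the 6 against 3 months step (right), with all genes (filled) and without ribosomal protein genes (open). Both medians decrease with length, from 0.22 to -0.07 on the left and from 0.45 to -0.17 on the right.

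The nuclear genes of respiratory complex I were above 0 in 37 of 44, with a median of 0.10. Ndufa3 and Ndufb9, accessory subunits, were the members with the smallest p, at 0.47 ± 0.18 and 0.39 ± 0.15. The mitochondrially encoded genes ran the other way, with 11 of 13 below 0 and a median of -0.24. Of the 13, 0 passed the unadjusted threshold in either direction, against 3.17% of all genes. mt-Nd5, a subunit of the same complex, had 2523, 2486 and 2097 CPM at 9 months and 2066, 1620 and 1836 CPM at 12 months (-0.35 ± 0.17, unadjusted p = 0.0802), without overlap. mt-Co1, the most abundant of them per length, overlapped.

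Oocyte genes were below 0 in 28 of 29, with a median of -0.69. Of the 29, 0 had an unadjusted p under 0.05, while 0.549% of all genes were lower and 2.62% higher at that threshold. In 0 of them the ages did not overlap, while 3.21% of all genes were lower and 4.03% higher without overlap. Zp2, a protein of the zona pellucida, had 35.6, 18.3 and 43.1 CPM at 9 months and 24.7, 4.32 and 17.1 CPM at 12 months (-1.07 ± 0.59, unadjusted p = 0.113). Dppa3, a maternal factor of the early embryo, had 6.16, 3.87 and 8.16 CPM against 4.18, 1.61 and 3.84 CPM (-0.91 ± 0.44, unadjusted p = 0.0782), Oosp3 was at -0.98 ± 0.56, and Tle6, the most abundant per length, at -0.38 ± 0.20. Replicate 2 of 12 months lay below every 9-month mouse in 25 of the 29 genes, replicate 3 in 8 and replicate 1 in 0, while the shares over all genes were 32.2%, 25.7% and 19.6%, so that replicate 3 was near the background. The 10 markers of the oocyte summed to 163, 82.8 and 205 CPM at 9 months and 137, 34.7 and 107 CPM at 12 months, with 9 of 9 tested below 0 and a median of -0.50; Nlrp5, Zp3 and Gdf9, also among them, were between -0.54 and -0.88. Without replicate 2 the median of the oocyte list was -0.32.

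Granulosa and follicle hormone genes were below 0 in 19 of 24, with a median of -0.32, and the 10 granulosa cell markers in 9 of 10, with -0.36. Kitl, the ligand that granulosa cells offer to the Kit receptor of the oocyte, had 128, 122 and 103 CPM at 9 months and 86.6, 83.5 and 104 CPM at 12 months (-0.35 ± 0.14, unadjusted p = 0.0416), with overlap. Serpine2, Fshr and Hsd17b1 were at -0.20, -0.25 and -0.48, and Amh, the hormone of growing follicles, had 150, 61.9 and 129 CPM against 112, 40.6 and 115 CPM. Gja1, the gap junction protein connexin 43, and Esr2, an oestrogen receptor, were at -0.50 and -0.58. Against the direction of the list, Gatm, an enzyme of creatine synthesis, was at 0.86 ± 0.30. Replicate 2 of 12 months was below every 9-month mouse in 20 of the 24 genes, against 32.2% of all genes, and without it the median was -0.03.

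Theca and early steroid synthesis genes were below 0 in 13 of 20, with a median of -0.11, and the 5 theca markers in 4 of 5, with -0.09. At an unadjusted p under 0.05, 1 of the 20 was higher (2.62% of all genes) and 0 were lower (0.549%). Without overlap 1 was higher (4.03% of all genes) and 0 were lower (3.21%). The median of the theca markers turned sign under an alternative fit. Ptch1, the receptor of hedgehog ligands, had 152, 102 and 153 CPM against 126, 59.6 and 96.1 CPM (-0.53 ± 0.29), Hhip, which holds those ligands, was at -0.48 and Gli1, their target, at -0.09. Cyp17a1, the enzyme of androgen synthesis, did not follow age, with 3.24, 129 and 117 CPM at 9 months and 150, 3.33 and 247 CPM at 12 months. Insl3, a peptide hormone of theca cells, was at -0.01, and Hsd3b1, the most abundant gene of the longer list per length, at -0.31 ± 0.26.

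Receptors of gonadotrophins, steroids and prostaglandins were below 0 in 15 of 19, with a median of -0.23. Esr1, the main oestrogen receptor of stroma and theca, had 61.9, 66.4 and 60.2 CPM at 9 months and 53.6, 42.0 and 51.1 CPM at 12 months, without overlap (-0.35 ± 0.12, unadjusted p = 0.0247). Igf1r was at -0.25 with overlap, and Ptgfr, the prostaglandin F receptor that triggers luteal regression and the most abundant of the list per length, had 419, 1288 and 659 CPM against 949, 575 and 294 CPM. Of the TGF-beta family 28 of 38 genes were below 0, with a median of -0.16. The inhibitors Smad6 and Smad7, which are themselves targets of the pathway, were the members with the smallest p. Smad6 (chromosome 9, 63953076 to 64022059) had 17.8, 39.7 and 28.9 CPM against 17.5, 15 and 13.2 CPM (-0.90 ± 0.29, unadjusted p = 0.0163), and Smad7 had 46.2, 48.2 and 66.2 CPM against 40.1, 40.6 and 26.7 CPM (-0.57 ± 0.22). Bmp7, a ligand, and Bmpr1a, a receptor, were at -0.42 and -0.25, both with overlap. Pmepa1, a target and inhibitor of TGF-beta signalling that was not on the list (chromosome 2, 173224458 to 173276533), was higher at 12 months, with 55.1, 47.2 and 50.5 CPM against 67.1, 102 and 91.3 CPM (0.79 ± 0.18, unadjusted p = 0.00328).

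Luteal and sterol genes varied between mice more than between the ages. The 25 cholesterol synthesis genes summed to 2287, 12723 and 10481 CPM at 9 months and 13015, 2238 and 2341 CPM at 12 months, so that 3 mice lay at 10481 to 13015 CPM and 3 at 2238 to 2341 CPM, both ages being found at each level. Of these genes 22 of 25 were below 0, with a median of -0.25 and a sum that overlapped, and the median was -1.61 without replicate 1 of 12 months, 0.03 without replicate 2 and 0.02 without replicate 3. Hsd17b7, an enzyme of cholesterol synthesis and of the corpus luteum, and the most abundant of the list per length, had 88.0, 4702 and 3091 CPM against 4051, 55.5 and 377 CPM. Insig1, a sensor of sterols, was at -0.83 ± 0.75 and overlapped. Akr1c18, which ends the progesterone signal, ran against them, with 1165, 82.2 and 19.4 CPM against 11, 1267 and 85.7 CPM.

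Corpus luteum genes were 9 above and 9 below 0, with a median of 0.0063. Apoc1, described above, has the smallest p among them; Cd63, a tetraspanin of vesicles, had 263, 266 and 250 CPM at 9 months and 270, 508 and 304 CPM at 12 months (0.49 ± 0.25), and Lgmn, a lysosomal protease, 554, 424 and 204 CPM against 247, 1341 and 441 CPM. Sfrp4, a Wnt antagonist and the most abundant per length, was at -0.70 ± 0.48. Luteal cell markers were below 0 in 6 of 8, with a median of -0.28; Prlr, Parm1 and Cyp11a1 were at -0.35, -0.50 and -0.21, all with overlap. Ovulation genes were above 0 in 8 of 14, with a median of 0.13 that turned sign under an alternative fit. Adamts4, a protease of the expanding cumulus, had 11.6, 9.94 and 10.2 CPM against 12.3, 28.3 and 18.1 CPM (0.91 ± 0.31, unadjusted p = 0.0224), Tnfaip6, Cebpd and Edn2 were above 0 with overlap, and Star, which carries cholesterol into mitochondria, had 1943, 2785 and 2545 CPM against 6090, 1596 and 512 CPM. Erythrocyte markers, 3 of 5 above 0 with a median of 0.09, summed to 28.5, 266 and 236 CPM against 417, 63.9 and 66.9 CPM, an order of mice near that of the cholesterol genes. Their median turned sign under an alternative fit. The beta globin Hbb-bs, the most abundant per length, had 14.6, 134 and 119 CPM against 218, 31.4 and 34.8 CPM, and Hba-a2 and Hbb-bt, near copies of other globin genes, were at 1.04 and 0.21.

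**Figure D4:**
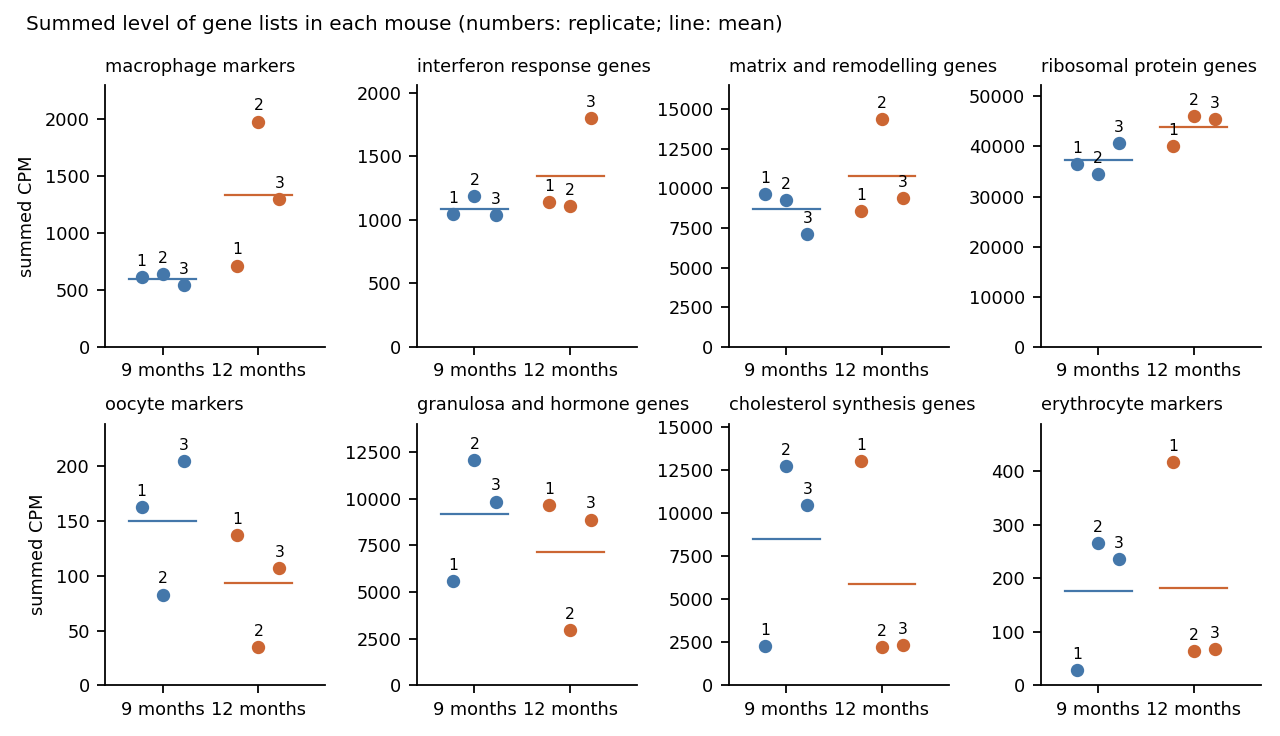
Summed CPM of 8 gene lists in each mouse at 9 months (blue) and 12 months (orange), with replicate numbers beside the points and the mean as a line; each vertical axis starts at 0. Macrophage markers are higher in replicates 2 and 3 of 12 months, interferon genes in replicate 3, matrix genes in replicate 2, and cholesterol genes split 3 mice from 3 across the ages.

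Matrix genes were above 0 in most members, and those other than collagens mainly through replicate 2. Collagen genes were above 0 in 29 of 37, with a median of 0.29, and matrix glycoprotein, proteoglycan and remodelling genes in 37 of 49, with 0.34. At an unadjusted p under 0.05, 1 of 37 and 2 of 49 were higher, a share near the 2.62% of all genes, and both summed levels overlapped. Col11a2 had 3.89, 6.46 and 5.81 CPM at 9 months and 8.03, 7.81 and 8.72 CPM at 12 months (0.62 ± 0.25, unadjusted p = 0.0446), and Col6a3, Col6a2 and Col16a1 were between 0.46 and 0.48 with overlap, while Col6a1, the most abundant per length, was at 0.17. Ltbp2, which binds to elastic microfibrils, did not overlap, with 48.3, 49.5 and 51.7 CPM against 58.0, 82.3 and 73.2 CPM (0.53 ± 0.16, unadjusted p = 0.011). Mmp14, a membrane protease, had 236, 260 and 199 CPM against 213, 544 and 345 CPM, and Sparc, a collagen-binding glycoprotein and the most abundant per length, was at 0.34 ± 0.31. Replicate 2 of 12 months lay above every 9-month mouse in 20 of 37 collagen and 31 of 49 other matrix genes, against 28.3% of all genes. Replicate 3 did so in 15 (40.5%) and 11 (22.4%), against 23.9%, and replicate 1 in 8 (21.6%) and 10 (20.4%), against 20.2%. Without replicate 2 the medians were 0.14 and 0.0087. Stromal fibroblast markers were above 0 in 10 of 10, with a median of 0.53, and summed to 4756, 2755 and 2535 CPM against 2744, 8121 and 4112 CPM; Dcn, decorin, was at 0.58 ± 0.30, and Mfap5, Dpt, Col1a1 and Col3a1 between 0.68 and 1.27, all with overlap. Without replicate 2 their median was 0.07.

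Other structural markers differed in how far they rested on replicate 2. Smooth muscle and pericyte markers were above 0 in 10 of 10, with a median of 0.23 that became -0.14 without replicate 2; Des, Actg2, Cnn1, Tagln and Acta2 each overlapped. Blood endothelial markers were above 0 in 7 of 10, with a median of 0.02, where Vwf gave 0.53 ± 0.23 and Cldn5 -0.06, and lymphatic markers in 4 of 5, with 0.07. Each of these medians turned sign under an alternative fit. Ovarian surface epithelium and mesothelium markers were above 0 in 10 of 10, with a median of 0.37. Of the 10, 3, 9 and 7 lay above every 9-month mouse in replicates 1, 2 and 3, against 20.2%, 28.3% and 23.9% of all genes. In the same order 4, 0 and 1 lay below every 9-month mouse, against 19.6%, 32.2% and 25.7% of all genes. Upk1b, a uroplakin of the mesothelium, had 30.3, 42.4 and 43.5 CPM at 9 months and 49, 72.6 and 53.8 CPM at 12 months (0.61 ± 0.21, unadjusted p = 0.0219), and Msln, mesothelin, did not overlap either (0.43 ± 0.18). Krt19 was at 1.01 CPM in replicate 3 of 9 months and 28.6 to 99.4 CPM in the other 5 mice. Oviduct markers were above 0 in 3 of 3, with a median of 0.24, adipocyte markers in 3 of 3, with 0.54, and skeletal muscle markers in 3 of 3, with 0.48. Nerve and Schwann cell markers were above 0 in 5 of 7, with a median of 0.18 that turned sign under an alternative fit. Among them S100b stood at 13.4 CPM in replicate 3 of 12 months. The adrenal cortex list had 2 of 5 genes tested, with Cyp11b1 at 50.2 CPM in replicate 2 of 12 months and 9.03 CPM in replicate 1 of 9 months against at most 0.663 CPM in the others, and Cyp21a1, which defines that tissue, at no more than 3 counts in every library.

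Cell cycle and senescence genes had small medians. Mitosis genes were below 0 in 44 of 47, with a median of -0.18, and DNA replication genes in 26 of 37, with -0.06. Of these 84 genes 0 had an unadjusted p under 0.05, while 0.549% of all genes were lower and 2.62% higher at that threshold. The median of the DNA replication genes turned sign under an alternative fit. The condensin genes Ncapd2, Ncaph, Smc4 and Ncapg were at -0.31, -0.35, -0.29 and -0.39, and Pola1, Mcm10, Cdc45 and Rfc1, which act at replication forks, between -0.18 and -0.50, with Cdc45 the only of them without overlap. Cell cycle arrest and senescence genes were above 0 in 15 of 26, with a median of 0.08 that turned sign under an alternative fit. Igfbp5 had 421, 427 and 561 CPM at 9 months and 495, 752 and 866 CPM at 12 months (0.60 ± 0.25, unadjusted p = 0.0443), with overlap. Cdkn2a, which encodes p16, had 1.57, 0.773 and 0.480 CPM against 0.976, 3.59 and 1.30 CPM (1.08 ± 0.66), Gadd45g and Cdkn1c were at 0.75 and 0.56, and Cdkn1a at 0.58 with unadjusted p = 0.532.

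The genes of the senescence-associated secretory phenotype (SASP), secreted factors and receptors of senescent cells, are those the study named when it profiled these samples, with Il1a and Il6, so their direction is not taken as independent evidence. Of 19 tested 15 were above 0, with a median of 0.46, 2 were higher (2.62% of all genes) and 1, Kitl, was lower (0.549% of all genes) at an unadjusted p under 0.05. Besides Cxcl10, Il1a, an alarm cytokine, had 0.324, 0.276 and 0.768 CPM at 9 months and 0.651, 2.19 and 1.6 CPM at 12 months (1.69 ± 0.62, unadjusted p = 0.0299), and Tnfrsf1b, a TNF receptor, had 77.5, 48.2 and 56.1 CPM against 65.0, 97.7 and 90.1 CPM (0.49 ± 0.23). Ccl3 and Pdgfa were at 1.16 ± 0.57 and 1.35 ± 0.67, Ccl2 at 1.15 ± 0.93, Timp1 at 0.91 ± 0.69 and Igfbp4 at 0.71 ± 0.52. Timp1, an inhibitor of matrix proteases and the most abundant per length, rested on replicate 2, with 307 CPM against 48.2 and 69.2 CPM in the other two mice of 12 months. Icam1, Il1b, Fgf2, Axl, Plaur, Timp2 and Tnfrsf1a were between 0.23 and 0.47, and Igfbp3, Mmp9 and Tnfrsf18 between -0.15 and -0.20. Il6 did not pass the filter on low counts. Replicate 2 of 12 months lay above every 9-month mouse in 14 of the 19 genes, replicate 3 in 7 and replicate 1 in 2. The shares over all genes were 28.3%, 23.9% and 20.2%, so that replicate 1 (10.5%) was under its background. Without replicate 2 the median was 0.17.

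Genes of daily rhythm, stress and redox balance showed few separations. Clock genes were below 0 in 16 of 19, with a median of -0.18. Rora, a nuclear receptor of the clock that innate lymphoid cells use too, had 80.2, 118 and 88.0 CPM at 9 months and 76.6, 52.2 and 35.8 CPM at 12 months (-0.79 ± 0.28, unadjusted p = 0.0263), and Cry2, a repressor of the clock, 70.2, 78.4 and 72.7 CPM against 67.3, 52.2 and 62.3 CPM (-0.27 ± 0.12). Per1, Clock and Nr1d1 overlapped, at -0.60, -0.16 and -0.18. Immediate early genes were above 0 in 20 of 30, with a median of 0.18. Egr2, Egr3, Ier3 and Socs3 were between 1.00 and 1.49, all with overlap, and Jund at -0.44. Heat shock and unfolded protein genes were above 0 in 20 of 26, with a median of 0.15, and Hspa1b, an inducible Hsp70, had 19, 28.1 and 20.6 CPM against 33.6, 32.3 and 34.4 CPM (0.58 ± 0.17, unadjusted p = 0.00984). Hspa1a, its near copy, gave 0.46 ± 0.25, Dnajb4 and Creld2 0.24 and 0.28, and Hsp90ab1 0.14. Glutathione and antioxidant genes were 17 above and 16 below 0, with a median of 0.0039. Gsta3 had 10.9, 12.5 and 8.45 CPM against 12.9, 12.9 and 17.6 CPM, and Gpx3, a secreted glutathione peroxidase and the most abundant per length, 1703, 5394 and 1989 CPM against 2373, 1447 and 757 CPM.

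The genes lower at 12 months with the smallest p did not belong to the lists above, apart from Smad6. Foxp2, a forkhead transcription factor (ENSMUSG00000029563, chromosome 6, 14901349 to 15441977), had 33.9, 35.1 and 33.6 CPM at 9 months and 27.8, 22.8 and 20.5 CPM at 12 months (-0.52 ± 0.14, unadjusted p = 0.00818). Rwdd3, which promotes SUMO conjugation (chromosome 3, 121155398 to 121171695), had 14.8, 13.8 and 15.9 CPM against 9.38, 9.94 and 9.67 CPM (-0.60 ± 0.17, unadjusted p = 0.00848). Clcn3, a chloride and proton exchanger of endosomes (chromosome 8, 60910389 to 60983300), had 101, 87.0 and 73.6 CPM against 64.3, 61.0 and 60.2 CPM (-0.48 ± 0.14, unadjusted p = 0.0104). The groups did not overlap in any of them, and the 12-month mice of Rwdd3 and Clcn3 lay close together. Ptprq, a receptor phosphatase, was at -0.75 ± 0.24, Grasp, a scaffold of membrane receptors, at -0.42 ± 0.14, Homer1, a scaffold of glutamate receptors, at -0.49 ± 0.16, and the noncoding RNA Eldr and Atf7ip2 at -1.16 ± 0.36 and -1.13 ± 0.37, all without overlap. Ifi202b, an interferon-inducible sensor, was at -2.98 ± 0.98, with 14.8 CPM in replicate 3 of 9 months, 2.11 and 1.6 CPM in the other two, and 0.325 to 1.15 CPM at 12 months.

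The step was set against the other 3-month step of the series that shares no mouse with it, 6 against 3 months, in one fit of 12 libraries. Of 18341 genes 0 differed between the steps at an adjusted p under 0.05 by edgeR's quasi-likelihood test, with a smallest adjusted p of 0.243. At an unadjusted p under 0.05, 440 genes (2.4%) had the higher log2 fold change in the 12 against 9 months step and 244 (1.33%) the lower, together 3.73% of genes. DESeq2, which gave an adjusted p to 1779 genes, called 25 of them (1.41%), all higher in the later step, of which 24 were ribosomal protein genes and the other was Cox7c. Rps29 had 204, 261 and 169 CPM at 3 months and 136, 94.3 and 140 CPM at 6 months, so that it was lower after the earlier step and higher after the later one in every mouse, and the difference between the steps was 1.90 ± 0.31 on the log2 scale (adjusted p = 0.243). For Rps28 the difference was 1.50 ± 0.23 and for Atp5k 1.56 ± 0.24, with the same adjusted p in edgeR. Rps29 and Rps28 were among the genes called by DESeq2, each with an adjusted p of 6.24e-06. Atp5k was not called, and whether it was among the 1779 genes given an adjusted p is not reported here. Genes outside those 1779 could not be called.

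Of the lists, the ribosomal protein genes had the most members with an unadjusted p under 0.05. In the difference between the steps 77 of 79 were above 0, with a median of 0.55, against 50% and -0.0002 over all genes. Of the 79, 69 had an unadjusted p under 0.05 in that direction, against 2.4% of all genes. Complex I genes were above 0 in 42 of 44, with a median of 0.29, DNA replication genes in 33 of 37, with 0.27, and mitosis genes in 40 of 47, with 0.23. Interferon genes were above 0 in 36 of 41, with 0.61, and chemokine genes in 18 of 22, with 1.13. Macrophage markers were above 0 in 9 of 10, with a median of 0.59 and 2 at an unadjusted p under 0.05, against 2.4% of all genes. The giant macrophage markers were split, 5 above and 3 below 0 with a median of 0.24, and the oocyte list too, 16 above and 14 below 0 with 0.05. In both lists 0 members had an unadjusted p under 0.05, against 3.73% of all genes in either direction. Clock genes were below 0 in 16 of 19, with a median of -0.42, and mitochondrially encoded genes in 12 of 13, with -0.24. The difference between the steps also ran with transcript length, from a median of 0.45 for the 105 shortest to -0.17 for the 2088 longest protein-coding genes, and its part in the ribosomal values was not tested. The genes with the most negative difference at the smallest p were Phf24, Thrb, a thyroid hormone receptor, and Fam129a, at -1.87, -1.06 and -0.84, with adjusted p of 0.9 to 0.917.

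The levels at the other ages place the step. The macrophage markers summed to 459 to 568 CPM at 3 months, 618 to 811 CPM at 6 months, 1828 to 3519 CPM at 18 months and 1604 to 5970 CPM at 25 months. Replicate 1 of 12 months, at 713 CPM, therefore lay within the 6-month range, and replicate 2, at 1976 CPM, within that of 18 months. Ighm had 4.10 to 7.75 CPM at 3 months, 5.66 to 13.7 CPM at 6 months, 16.8 to 2783 CPM at 18 months and 3855 to 16104 CPM at 25 months, so the 12-month mice lay above all 9 younger natural aging mice. The oocyte markers summed to 325 to 434 CPM at 3 months, 224 to 254 CPM at 6 months, 37.6 to 51.5 CPM at 18 months and 12.1 to 32.0 CPM at 25 months. The sum of 34.7 CPM in replicate 2 of 12 months was under the 18-month range and the 137 CPM of replicate 1 within the 9-month range. Ribosomal protein genes summed to 49564 to 52595 CPM at 3 months, 40141 to 43923 CPM at 6 months, 40407 to 43570 CPM at 18 months and 36723 to 46577 CPM at 25 months, and the lowest sum of all natural aging mice was that of replicate 2 of 9 months, at 34511 CPM.

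**Figure D5:**
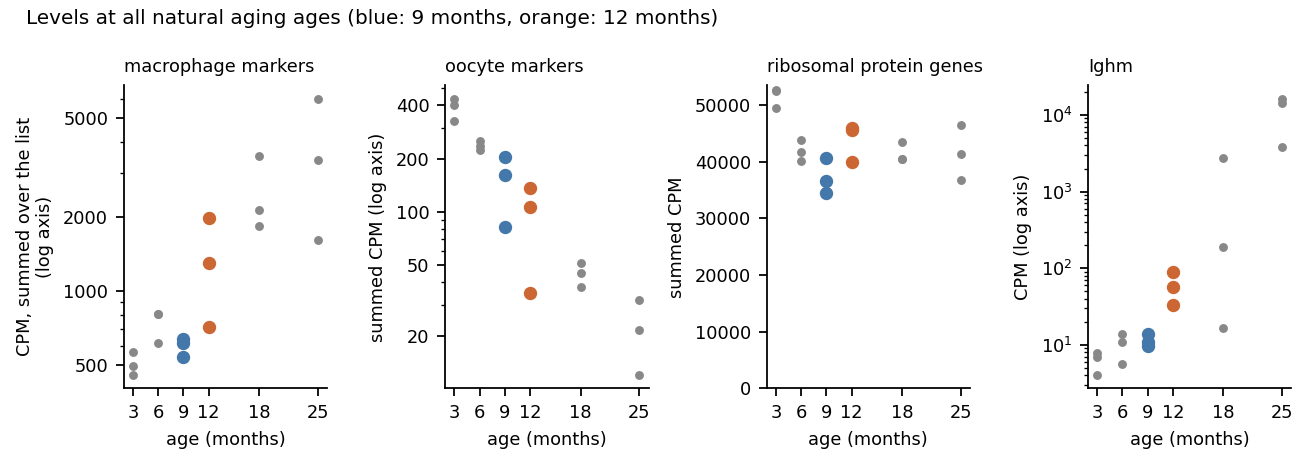
Summed CPM of the macrophage markers, the oocyte markers and the ribosomal protein genes, and CPM of Ighm, in each natural aging mouse against age in months. Macrophage markers lie at 541 to 637 CPM at 9 months and 713 to 1976 CPM at 12 months, and the oocyte markers of these ages overlap, at 82.8 to 205 CPM and 34.7 to 137 CPM.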

How the data were processed

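mRNA libraries (NEBNext Ultra) were made from whole mouse ovaries. The authors deposited raw read counts per Ensembl gene, made with STAR on mm10 per the labels. The counting program, strand setting and annotation release are not given in the sources used here. Reads shared by near-identical genes could be split between them, and without a known strand setting overlapping and antisense genes could not be told apart. Of 54532 identifiers 54495 were found in GENCODE M21 (GRCm38), which gave symbols, coordinates and the median transcript length, and 16474 were at 0 in all libraries.

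Counts were tested with edgeR 4.0.16 (R 4.3.3; TMM scaling, default filterByExpr, glmQLFit and glmQLFTest, two-sided, Benjamini-Hochberg over all genes tested), for 12 against 9 months on the 6 libraries and for the difference between this step and the 6 against 3 months step on 12 libraries. DESeq2 1.42.0, limma 3.58.1 with library weights, other filters and scalings, a replicate block and leaving out each library were alternatives. The scripts were tested on simulated data. An exact permutation test of 3 against 3 mice cannot go below p = 0.1, so none was run. Counting error is large for genes of a few reads, where 3 counts correspond to 0.143 to 0.163 CPM, and p-values cover both this error and the spread between mice.

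Named genes were the 10 with the smallest unadjusted p in each direction with a mean of at least 2 CPM, since none passed the adjusted threshold, leaving out immunoglobulin segments, pseudogenes and predicted genes, and up to 4 members a list with the smallest p in the direction of more members, with the most abundant member and markers that define a cell type. Other genes, among them Ighm, Igkv3-2 and Gm19410, were named after their values were seen. The 28 gene lists and 24 marker lists were written from general knowledge, apart from the SASP list, and members and lists were chosen with earlier results of these data known. Promoters were 250 bases before RefSeq starts. The values of some list members are not reported here.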

Additional observations from a re-analysis of the deposited data

Results flagged for a closer look

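In 8 of the genes described, all 3 mice of the later age moved one way in the 12 against 9 months step and all 3 the opposite way in the 6 against 3 months step, without overlap in either. The difference between the steps was tested for each by edgeR and none passed the adjusted threshold in the main fit. In DESeq2 Rps29 and Rps28 each had an adjusted p of 6.24e-06, Rpl38 1.66e-05 and Rpl39 0.000717. In edgeR without a filter on low counts Rps29, Rps28, Rpl38 and Atp5k passed. The adjusted p-values below are those of the main fit. For ribosomal protein genes the difference was 1.90 for Rps29, 1.50 for Rps28 and 1.50 for Rpl38, on the log2 scale, each with an adjusted p of 0.243, and 1.22 for Rpl39, with 0.626. Rpl38 had 181, 229 and 175 CPM at 3 months and 138, 105 and 125 CPM at 6 months, against 124, 107 and 168 CPM at 9 months and 228, 248 and 222 CPM at 12 months.

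For Atp5k, a subunit of ATP synthase, the difference was 1.56 (adjusted p = 0.243), and for Ndufb9, a subunit of complex I, 0.79 (adjusted p = 0.9). Apoc1, the apolipoprotein, gave 1.57 (adjusted p = 0.626), with 3.05, 2.71 and 3.32 CPM at 3 months and 1.87, 2.43 and 2.48 CPM at 6 months. Cry2, the clock repressor, ran in the opposite sense, at -0.54 (adjusted p = 0.917), with 52.9, 51.9 and 57.1 CPM at 3 months and 63.6, 66.9 and 65.7 CPM at 6 months. Cry2 has a transcript of 3068 bases, whereas the other 7 genes have transcripts of 321.5 to 704 bases, and the part of transcript length in these differences was not tested. For these flagged results no mouse was compared with the others of its age, since each age has 3 mice. Genes that stood out in 1 of the 6 mice of the step are given under the other observations.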

How the results depend on the processing

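For 12 against 9 months, the count of genes higher at an adjusted p under 0.05 was 5 with DESeq2 and 1 (Ighm) without a filter on low counts, and 0 under every other alternative run. The count lower was 0 under all of them. At an unadjusted p under 0.05, 454 genes were higher and 95 lower. The count higher was 698 with all 24 libraries in one fit, 756 without a filter and 976 by limma with library weights, which was chosen after seeing the data. The count lower was 206 with DESeq2, 232 with the 18 natural aging libraries, 315 with all 24, 329 without a filter and 493 by limma. Leaving out 1 library gave 260 to 1051 higher and 62 to 582 lower, with 0 at the adjusted threshold each time. Without replicate 1 of 12 months the counts were 1051 and 582, without its replicates 2 and 3 the count higher was 280 and 260, and without replicates 1, 2 and 3 of 9 months the count lower was 165, 163 and 62.

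For the difference between the steps (440 higher, 244 lower, unadjusted), the adjusted count higher was 25 with DESeq2 and 4 without a filter (Rps29, Rps28, Rpl38 and Atp5k), and the adjusted count lower was 3 without a filter (Ighg3, Ighv1-11 and Igkv8-16). The unadjusted count lower was 393 with DESeq2 and 635 without a filter. Leaving out 1 library gave 356 to 819 higher, the highest without replicate 1 of 12 months, and 178 to 489 lower, with 485 without that library and 489 without replicate 1 of 3 months.

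Same-numbered mice of 9 and 12 months correlated at -0.35, -0.13 and 0.13 in their deviations from the age means. For 6 and 9 months the values were 0.26, 0.22 and 0.04, and for 3 and 9 months -0.20, -0.10 and -0.03. With 3 mice an age such values cannot decide whether the numbers pair the mice, and the labels name no pairing. With the replicate number as a block, 156 genes were lower and 369 higher at an unadjusted p under 0.05 for 12 against 9 months, and 506 lower and 446 higher for the difference between the steps. The adjusted counts stayed at 0 with the block.

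The median turned sign under at least 1 alternative in the corpus luteum, ovulation, cholesterol, DNA replication, senescence and antioxidant lists, and in the theca, smooth muscle, blood endothelial, lymphatic, plasma cell, erythrocyte, adrenal and nerve markers. With at least 10 counts in every library no neutrophil marker was left. The causes were not tested.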

Other observations

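Some genes stood out in 1 of the 6 mice of the step, and were named after their values were seen. Among protein-coding genes, Comp, a cartilage matrix protein, had 80.5 CPM in replicate 3 of 12 months and at most 8.12 CPM in the other 5 mice of the step, while 1 of the 18 libraries outside the step had more than 50% of that level, at 40.7 CPM. Gbp2b, an interferon-induced GTPase, had 30.4 CPM in replicate 2 of 9 months and at most 0.897 CPM in the others, and 4 of the 18 libraries outside the step had more than 50% of that level, the highest at 30.4 CPM. Krt15, a keratin of basal epithelium, had 16.8 CPM in replicate 3 of 9 months and at most 0.897 CPM in the others, in the mouse where Krt19 was at 1.01 CPM. Vsig8 had 9.79 CPM in replicate 2 of 12 months and at most 0.897 CPM in the others. Hp, haptoglobin, which binds free haemoglobin, had 6.22, 17.6 and 15 CPM at 9 months and 29.9, 12.6 and 0.698 CPM at 12 months.

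The processed pseudogenes Atp6v0c-ps2 and Rps2-ps10 had 29.4 and 159 CPM in replicate 3 of 9 months, against at most 1.16 and 1.67 CPM in the other 5 mice of the step and at most 3.24 and 2.00 CPM in the 18 other libraries. The variable segment Igkv8-30 had 13.5 CPM in replicate 2 of 12 months and at most 0.828 CPM in the others, and 4 of the 18 other libraries had more than 50% of that level, the highest at 35.1 CPM. Ighg2c, the IgG2c constant region, had 2.12, 69.8 and 57.7 CPM at 12 months against 10.6, 6.79 and 7.20 CPM at 9 months.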
